A study of Oryza sativa with 12 samples.

Results

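APX1, APX5, CatA and CatB are 4 rice genes for enzymes that break down hydrogen peroxide, the first pair ascorbate peroxidases and the second pair catalases. Their transcripts were followed in flag leaves on Affymetrix rice arrays through every probe set that the array annotation ties to exactly 1 gene with one of these names as its symbol or synonym. The 4 names were chosen with earlier results of these data known. The rule itself used names only and no measured value. It found 10 of the 57194 probe sets tested, and 4 of the 17905 genes that have a probe set of their own. APX1 (gene ID LOC4332474) and APX5 (LOC4351664) had 1 probe set each, CatA (LOC4328073) had 3 and CatB (LOC4342124) had 5.

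An ascorbate peroxidase reduces hydrogen peroxide to water with electrons from ascorbate, and the oxidised ascorbate is then returned to its reduced form by monodehydroascorbate and dehydroascorbate reductases. A catalase splits hydrogen peroxide into water and oxygen with no added reductant and works mainly in peroxisomes, where photorespiration makes much of the peroxide of a green leaf. Rice ascorbate peroxidases are sorted by where they act: APX1 and APX2 are cytosolic, APX3 and APX4 are assigned to peroxisomes, and APX5 to APX8 carry signals for chloroplasts or other organelles.

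Wild-type plants and plants carrying PSARK::IPT were compared. In PSARK::IPT the promoter of a receptor kinase gene of ageing leaves drives isopentenyltransferase, the enzyme that opens cytokinin synthesis. All plants were 10 weeks old, were grown in a greenhouse, and were either kept watered or left without water for 3 days before flowering. The labels give 3 biological replicates, 1 array each, for wild type with water (WT_watered), wild type without (WT_stressed), PSARK::IPT with water (IPT_watered) and PSARK::IPT without (IPT_stressed). The number of transgenic lines and the number of plants behind 1 array are not given in the sources used here.

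Checks of the arrays bear on every result below. Signal from 2 reporter probe sets for foreign sequences rose with the label for water and not with that for genotype. The higher of them ranged from 8.71 to 9.19 in WT_stressed and from 9.86 to 10.37 in IPT_stressed, against 1.99 to 2.15 in IPT_watered. In WT_watered it was 2.06, 2.35 and 6.03, replicate 3 alone being raised. The link of these reporters to the transgene is not stated. Whether the labels for genotype and water are right was not tested, so groups are named here as labelled. Each genotype or water difference below is one between labelled groups. The 3′ minus 5′ difference of the GAPDH control probe sets, a measure of RNA integrity and labelling, ranged from 4.86 to 7.30 on the wild-type arrays and from 3.34 to 4.29 on the PSARK::IPT arrays, with no overlap. The mean signal of the bio spike controls, transcripts that are added to the sample at hybridisation, also parted the genotypes without overlap, at 10.66 to 11.99 in wild type and 8.13 to 8.69 in PSARK::IPT. Neither measure can be told apart from labelled genotype. Replicate 3 of WT_stressed stood furthest from its mates, with 7.42% of probe sets more than 1 log2 unit away, against 0.512% to 3.45% on the other 11 arrays. The leaf markers RCA and CAB2R had group means of 12.7 to 13.5 on the log2 scale, while 3 of 4 anther markers, 3 of 7 floral markers and 1 of 3 root markers lay at background in every group.

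Markers also differed between labelled genotypes, as the members did. Of the 7 floral markers 3 were called higher and 1 lower in PSARK::IPT with water, and 2 higher and 2 lower without, of which 1 in each condition (MADS7 and MADS6) lay at background in every group. MADS1, a floral organ gene, was higher by 1.204 (limma adjusted p = 0.00494) and 2.19 (limma adjusted p = 5.68e-05), MADS16 by 0.90 in both conditions, and MADS4 had -0.68 and -1.15, all called. The log2 of the summed floral signal in wild type was 6.69 to 7.07 with water and 6.45 to 6.95 without. In PSARK::IPT it was 7.56 to 7.70 and 7.36 to 7.56, so the genotypes did not overlap. Of the 2 leaf markers RCA, which activates Rubisco, was called higher in PSARK::IPT on all 4 of its probe sets, by 0.72 and 0.75 on the one that stands for the gene. CAB2R went the other way, with -0.45 with water and -0.22 without on the probe set that stands for it, neither called. Its other probe set was called lower in both water conditions, with -0.95 and -0.60, and PSARK::IPT lay below wild type there without overlap. Root markers gave 0 calls of 3 with water and 0 without, and of the 4 anther markers 1 was called lower with water and 2 without, both at background in every group. The part of these markers in the genotype results was not tested.

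All levels below are log2 values as the authors deposited them, made with RMA, which corrects background, normalises arrays against each other and merges the probes of a probe set. A change is a difference of 2 group means on that scale, given with the moderated standard error (SE) of limma, so that 1 unit is a 2-fold change. The SE pools the spread within all 4 groups, also where these groups scatter unequally. Calls were made at an adjusted p under 0.05, by the Benjamini-Hochberg method over all 57194 probe sets. Levels were not compared between genes, since probes differ in how strongly they bind. Of several probe sets for 1 gene, the one with the highest mean signal, called the brightest, stands for the gene. In whole leaves, fewer cells of a type and less RNA per cell cannot be told apart.

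APX1 was higher on all 6 PSARK::IPT arrays than on any wild-type array, by 2.45-fold with water and 3.67-fold without. APX5 was lowest in WT_stressed and close to 6 on the log2 scale in the other groups. CatA was highest in IPT_stressed on each of its probe sets and lowest in IPT_watered. The 5 CatB probe sets did not move together: the brightest was lower in PSARK::IPT and the dimmest, which lay at background in wild type, was higher there.

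**Figure D1:**
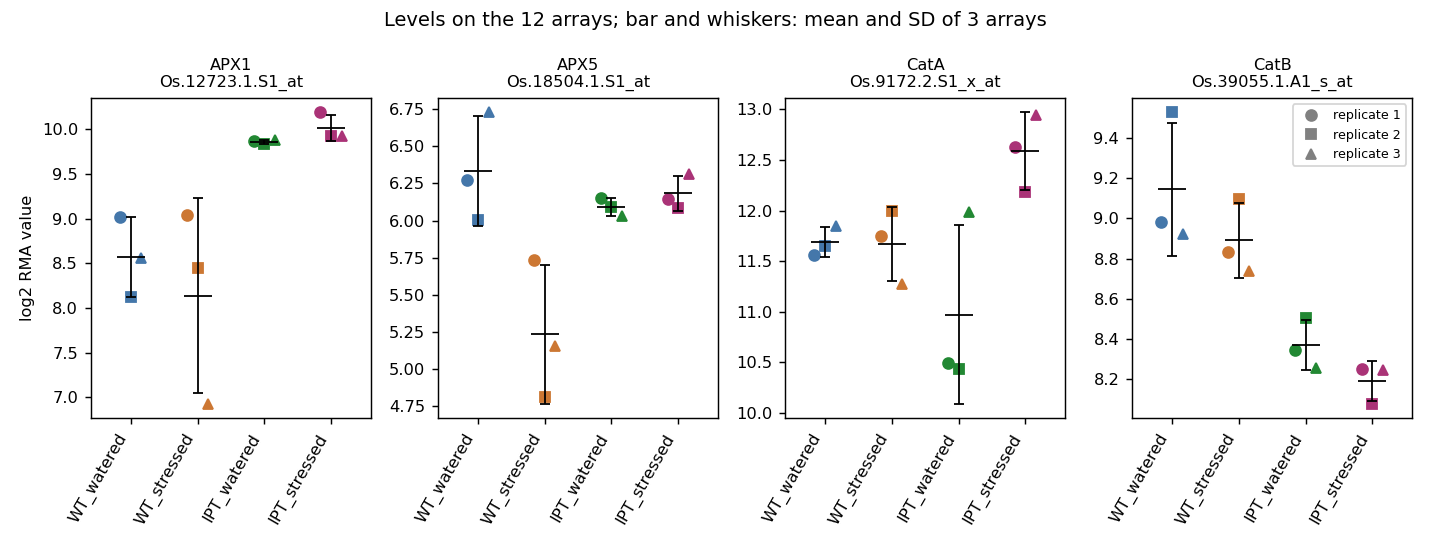
Log2 RMA value (vertical axis, a different range in each panel) of the probe set standing for each gene on the 12 arrays, by labelled group; the horizontal bar is the mean and the whiskers the SD of 3 arrays. APX1 of the PSARK::IPT groups lies between 9.84 and 10.19, above all wild-type arrays, and replicate 3 of IPT_watered (11.99) sits apart from its 2 mates in CatA.

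Between labelled genotypes, 5 of the 10 probe sets were called with water, 2 higher and 3 lower in PSARK::IPT. Of all probe sets 19.2% were called there, 10.3% higher and 8.90% lower. Without water 5 of the 10 were called, 4 higher and 1 lower, beside 46.1% of all probe sets, 19.3% higher and 26.7% lower. The arrays of the 2 genotypes did not overlap for 5 of the 10 with water and 6 without, beside 42.4% and 55.4% of all probe sets, so the shares without overlap lay close to the background. Over the 10 probe sets the median change was -0.44 with water and 0.61 without, beside -0.076 and -0.16 over all probe sets. Among the 15303 probe sets with a mean of at least 5, 32.5% and 53.6% were called and the median changes were 0.20 and 0.52. Of the 10 probe sets 8 had such a mean, and 4 of the 8 were called in each condition.

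For the water treatment, 0 of the 10 probe sets were called in either labelled genotype. In wild type 0.420% of all probe sets were called, and an unadjusted p under 0.05 in limma was found for 2 of the 10 and for 11502 of 57194. In PSARK::IPT 0.177% were called, and such a p was found for 3 of the 10 and for 4589 of 57194. Those 3 were the CatA probe sets, all of the same gene. The difference between the 2 stress effects was called for 0 of the 10 and for 0% of all probe sets in limma, with an unadjusted p under 0.05 for 4 of the 10 and for 8178 of 57194. Those 4 were the same CatA probe sets and APX5. Averaged over both genotypes the water treatment was called for 0 of the 10 and for 0.409% of all probe sets.

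**Figure D2:**
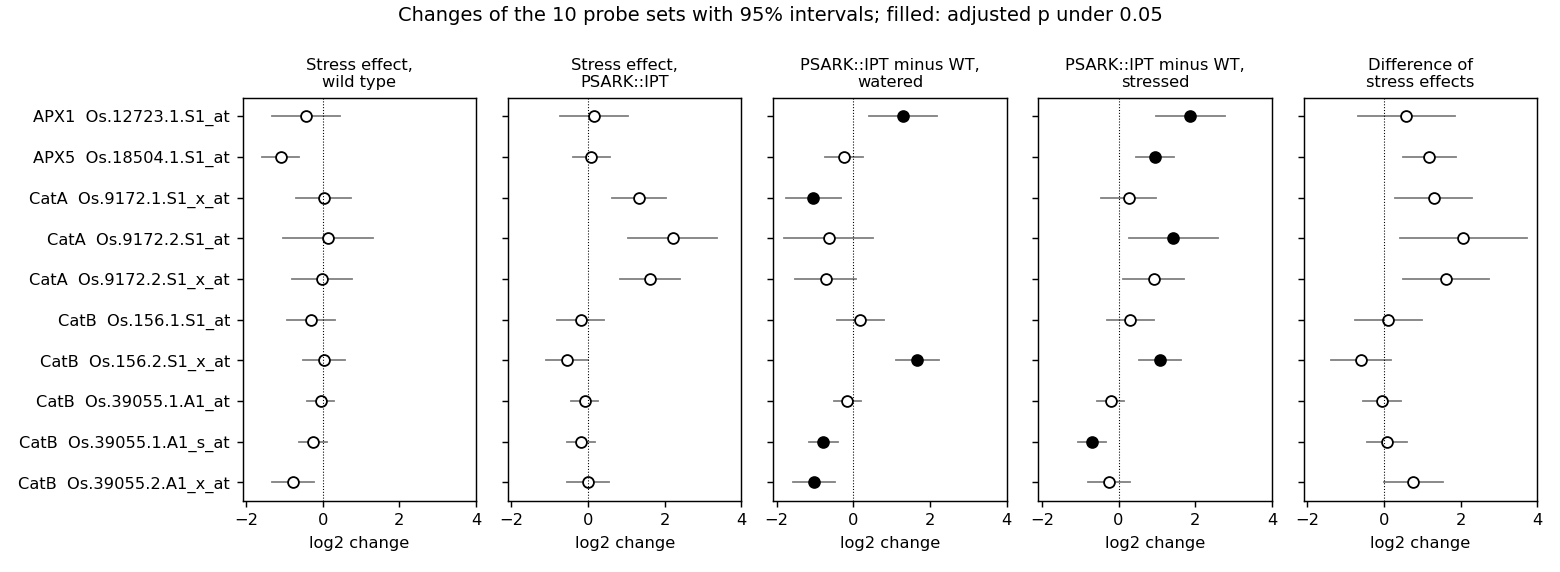
Log2 change (horizontal axis) of each of the 10 probe sets in 5 comparisons, one panel each; points are limma estimates, lines their 95% intervals, and filled points have an adjusted p under 0.05. Filled points occur only in the 2 genotype panels, and CatB probe sets lie on both sides of 0 there.

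APX1, the cytosolic ascorbate peroxidase of the pair, read 9.02, 8.13 and 8.56 on the WT_watered arrays (replicates 1 to 3). The WT_stressed arrays read 9.04, 8.45 and 6.93. The IPT_watered arrays read 9.87, 9.84 and 9.87, and the IPT_stressed arrays 10.19, 9.93 and 9.93. The wild-type arrays scattered widely and the PSARK::IPT arrays hardly at all, with SDs (n = 3) of 0.45 and 1.09 against 0.02 and 0.15. In order, IPT_stressed (10.01) stood above IPT_watered (9.86) and that above WT_watered (8.57), each without overlap, while WT_watered and WT_stressed (8.14) overlapped.

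With water, APX1 was higher in PSARK::IPT by 1.29 (SE 0.41, limma adjusted p = 0.0455). Without water it was higher by 1.88 (SE 0.41, limma adjusted p = 0.00368). Averaged over both water conditions, the genotype difference was 1.58 (SE 0.29, limma adjusted p = 9.41e-04), and 51.2% of all probe sets were called in that comparison. A higher value on all 6 PSARK::IPT arrays than on any wild-type array was found for 11.1% of all probe sets. The call with water was lost when any 1 of 10 of the 12 arrays was left out, with changes of 1.07 to 1.52 over all 12 omissions, and without WT_watered replicate 3 it was 1.29 (adjusted p = 0.0869). The change without water was 1.27 (adjusted p = 0.00176) without WT_stressed replicate 3, the lowest array.

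Withholding water gave no called change of APX1. The change was -0.43 in wild type (SE 0.41, 95% interval -1.32 to 0.46) and 0.15 in PSARK::IPT (SE 0.41, 95% interval -0.74 to 1.05). This SE pools groups with SDs from 0.02 to 1.09, so the second interval does not measure the spread of the PSARK::IPT arrays alone. The 3 IPT_stressed arrays all lay above the 3 IPT_watered arrays, and 20.3% of all probe sets had no overlap between these groups. Without WT_stressed replicate 3, the wild-type change was 0.17 and the difference between the stress effects went from 0.58 (SE 0.58, adjusted p = 0.657) to -0.022.

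**Figure D3:**
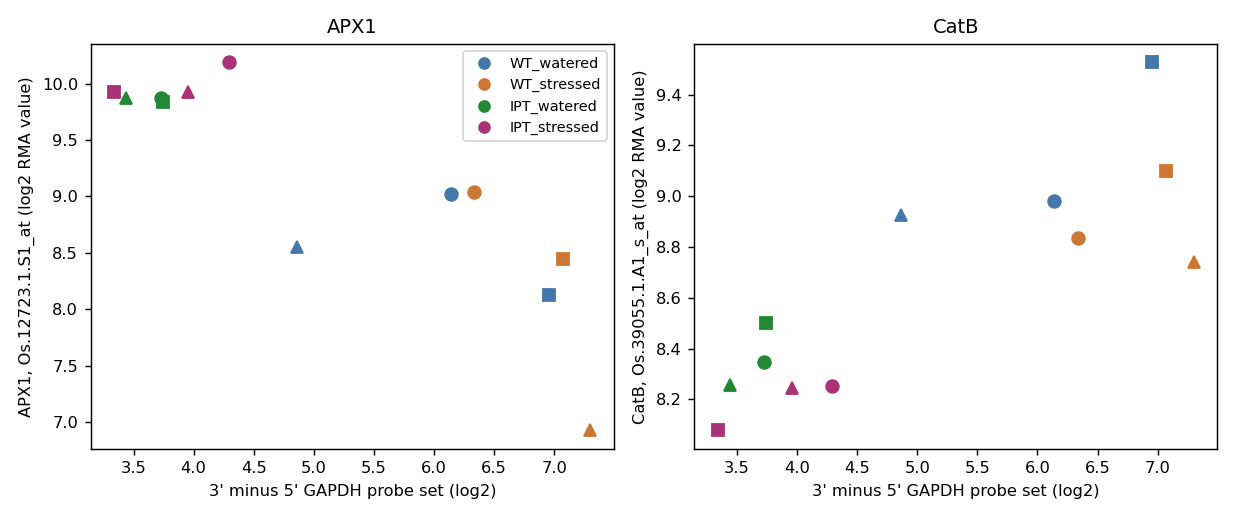
Log2 RMA value of APX1 (left) and of the CatB probe set Os.39055.1.A1_s_at (right) against the 3′ minus 5′ GAPDH difference (log2, horizontal axis) on the 12 arrays; colour is the labelled group and the marker shape the replicate, as in the plot of levels. The PSARK::IPT arrays lie at GAPDH differences of 3.34 to 4.29 and the wild-type arrays at 4.86 to 7.30, so no value of this control is shared by both.

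The plot against this control shows both genes and the GAPDH difference parted by labelled genotype. Within wild type, WT_watered replicate 3 had the smallest GAPDH difference, 4.86, and an APX1 value of 8.56, below the 9.02 and 9.04 of arrays at 6.14 and 6.34. The arrays at 6.96 and 7.07 read 8.13 and 8.45. WT_stressed replicate 3 had both the lowest APX1 value and the largest GAPDH difference, 7.30. With the GAPDH difference as a covariate, 0 of the 10 probe sets were called for genotype with water or without, and over all probe sets 39 and 129 were called. APX1 then had 0.45 with water (adjusted p = 0.831) and 0.78 without (adjusted p = 0.682). Labelled genotype and this control cannot be told apart.

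APX5, one of the ascorbate peroxidases with an organelle signal, read 6.27, 6.00 and 6.73 in WT_watered. It read 5.74, 4.81 and 5.15 in WT_stressed. In IPT_watered it read 6.15, 6.09 and 6.03, and in IPT_stressed 6.15, 6.08 and 6.32. WT_stressed was the only group that stood apart, and all 3 of its arrays lay below the other 9. The group means in order were 6.33 in WT_watered, 6.18 in IPT_stressed, 6.09 in IPT_watered and 5.24 in WT_stressed, of which the first 3 overlapped.

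In wild type without water APX5 had a change of -1.10 (SE 0.23), a 2.14-fold lower level, with a limma adjusted p of 0.0592. It was not called, although the groups did not overlap, which held for 18.1% of all probe sets. The call was reached in 4 of 21 alternatives. It was reached without WT_stressed replicate 1 (-1.35, adjusted p = 0.0203) and without WT_stressed replicate 3 (-1.06, adjusted p = 0.0462). The others were equal array medians and testing only probe sets with a mean of at least 5 (adjusted p = 0.0351). In 17 alternatives APX5 stayed uncalled, with an adjusted p of up to 0.424. Without WT_watered replicate 3 the change was -0.90 (adjusted p = 0.146).

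In PSARK::IPT the change of APX5 without water was 0.092 (SE 0.23, 95% interval -0.40 to 0.59). The difference between the stress effects was 1.19 (SE 0.32, 95% interval 0.49 to 1.89), with an adjusted p of 0.237 in limma. Without water, APX5 was 1.93-fold higher in PSARK::IPT than in wild type, a change of 0.95 (SE 0.23, limma adjusted p = 0.00595). With water the change was -0.24 (SE 0.23, 95% interval -0.74 to 0.25). After quantile normalisation of the deposited values the difference without water was 0.39 (adjusted p = 0.223), and with the GAPDH covariate -0.075 (adjusted p = 0.942).

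The other ascorbate peroxidases gave a setting for both genes, and 5 of them were on the array. APX2, the other cytosolic enzyme, was called higher in PSARK::IPT without water by 0.43 (SE 0.12, limma adjusted p = 0.0134), and with water its change was 0.37 (adjusted p = 0.0512). Of its other probe sets, one had 0.64 with water (limma adjusted p = 0.00896) and 0.67 without, both called, and one had 1.099 and 1.44, the second called. The last lay at background in both groups without water. With equal array medians APX2 was called in both conditions (0.46 and 0.66), and after quantile normalisation in neither, where the change without water was 0.25 (adjusted p = 0.277). The changes of APX1 in the same comparisons, 1.29 and 1.88, have the same sign and share the same arrays.

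APX6 lies next to APX5 in the RefSeq gene table, with no gene between them. Its WT_stressed arrays read 7.48, 7.49 and 7.81, and its WT_watered arrays 7.91, 7.57 and 8.53, so the groups overlapped. Its change without water was -0.41 in wild type (SE 0.21, adjusted p = 0.298) and 0.31 in PSARK::IPT (SE 0.21, adjusted p = 0.866). These have the signs of the APX5 changes, -1.10 and 0.092, but none of the 4 was called.

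APX7, the enzyme of the chloroplast stroma, had a genotype change of 1.09 without water (SE 0.43, adjusted p = 0.0551). APX4 and APX8, the latter bound to thylakoids, had changes between -0.31 and 0.27 in the 4 comparisons, none called. APX3 had no probe set of its own here. Across the 5 genes, by the probe set that stands for each, 1 was called higher without water and 0 with water, and 0 for the water treatment in either genotype. With equal array medians APX4, APX6 and APX7 were called higher without water as well, by 0.50, 0.68 and 1.32.

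**Figure D4:**
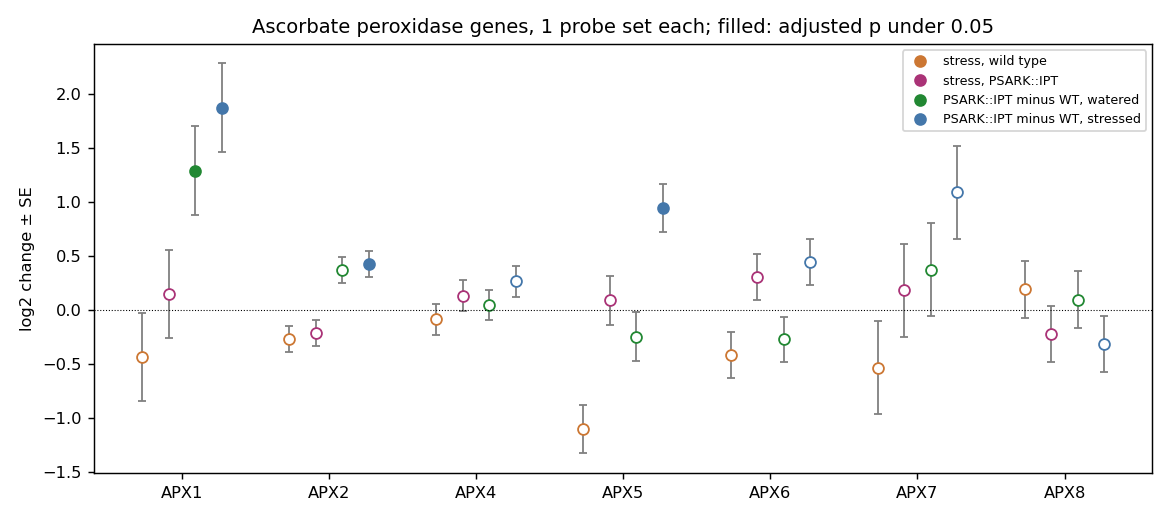
Log2 change with its SE (vertical axis) of 7 ascorbate peroxidase genes, 1 probe set each, in the 4 comparisons of 2 groups; filled points have an adjusted p under 0.05. APX1 has the 2 highest points, 1.29 and 1.88, and APX5 the lowest, -1.10 for the water treatment in wild type.

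CatA was read by 3 probe sets with the same course over the arrays. The suffix _x_at marks probe sets with probes that may bind other transcripts as well, and 2 of the 3 carry it, whereas Os.9172.2.S1_at does not. On Os.9172.2.S1_x_at, the brightest, the WT_watered arrays read 11.56, 11.65 and 11.85 and the WT_stressed arrays 11.75, 11.997 and 11.27. The IPT_watered arrays read 10.49, 10.44 and 11.99, and the IPT_stressed arrays 12.62, 12.18 and 12.95. The IPT_stressed arrays lay above all others, and IPT_watered replicate 3 read like wild type while its 2 mates lay more than 1 unit lower.

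The other probe sets showed the same array apart. On Os.9172.2.S1_at the values were 9.98, 9.94 and 10.13 in WT_watered, 10.42, 10.73 and 9.31 in WT_stressed, 8.65, 8.67 and 10.81 in IPT_watered, and 11.65, 10.95 and 12.15 in IPT_stressed. On Os.9172.1.S1_x_at they were 11.50, 11.60 and 11.74 in WT_watered, 11.62, 11.95 and 11.35 in WT_stressed, 10.13, 10.10 and 11.49 in IPT_watered, and 11.92, 11.54 and 12.24 in IPT_stressed. IPT_watered replicate 3 stood 1.38, 1.53 and 2.15 above the mean of its mates on the 3 probe sets. Over all probe sets this array did not stand apart: 1.77% lay more than 1 unit from its mates.

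Without water the mean of CatA in PSARK::IPT differed from that with water by 1.61 on Os.9172.2.S1_x_at (SE 0.36, limma adjusted p = 0.131), 2.21 on Os.9172.2.S1_at (SE 0.54, adjusted p = 0.165) and 1.33 on Os.9172.1.S1_x_at (SE 0.33, adjusted p = 0.169). None of the 3 was called, although all 3 IPT_stressed arrays lay above all 3 IPT_watered arrays on each. Without IPT_watered replicate 3 the changes were 2.12 (adjusted p = 0.00713), 2.92 (adjusted p = 0.0155) and 1.79 (adjusted p = 0.00993), and all 3 were called. That array was singled out here by its own high CatA values, so its omission had to raise these changes. The omission therefore cannot decide whether CatA responds to water. With single arrays omitted in turn, the change on the brightest probe set ranged from 1.35 to 2.12, with an adjusted p of up to 0.671 in limma.

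In wild type the changes of CatA without water were -0.016, 0.13 and 0.027 in the same order, the first with a 95% interval of -0.81 to 0.77. The difference between the stress effects was 1.63 (SE 0.51, 95% interval 0.51 to 2.75) on the brightest probe set, with an adjusted p of 0.260 in limma. It was 2.14 (adjusted p = 0.147) without IPT_watered replicate 3 and 1.43 (adjusted p = 0.198) without WT_stressed replicate 3.

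Between genotypes, the mean differences of CatA had opposite signs in the 2 water conditions. With water its mean was lower in PSARK::IPT on all 3 probe sets, by -1.04 (SE 0.33, limma adjusted p = 0.0437, called) on Os.9172.1.S1_x_at, -0.72 on Os.9172.2.S1_x_at and -0.64 on Os.9172.2.S1_at, the last 2 not called. Without IPT_watered replicate 3, the array singled out by its own CatA values, the probe sets had -1.50, -1.22 and -1.36, all called. With single arrays omitted in turn, the change on the brightest ranged from -1.22 to -0.45, with an adjusted p of up to 0.491 in limma. Without water the mean was higher on all 3, by 1.43 (SE 0.54, limma adjusted p = 0.0458, called) on Os.9172.2.S1_at, 0.91 (adjusted p = 0.0565) on Os.9172.2.S1_x_at and 0.26 on Os.9172.1.S1_x_at. The call on Os.9172.2.S1_at was not reached after quantile normalisation (1.21, adjusted p = 0.119), nor was that on Os.9172.1.S1_x_at with equal array medians (-0.95, adjusted p = 0.0624). In the main fit the opposite signs thus rest on 2 calls, both close to 0.05 and on different probe sets. Among the member probe sets, 4 rather than 5 were called without water with trend and robust options, array weights or the replicate block. Over all alternatives the calls ranged from 0 to 6 in either water condition. These counts do not name the probe sets that lost a call.

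**Figure D5:**
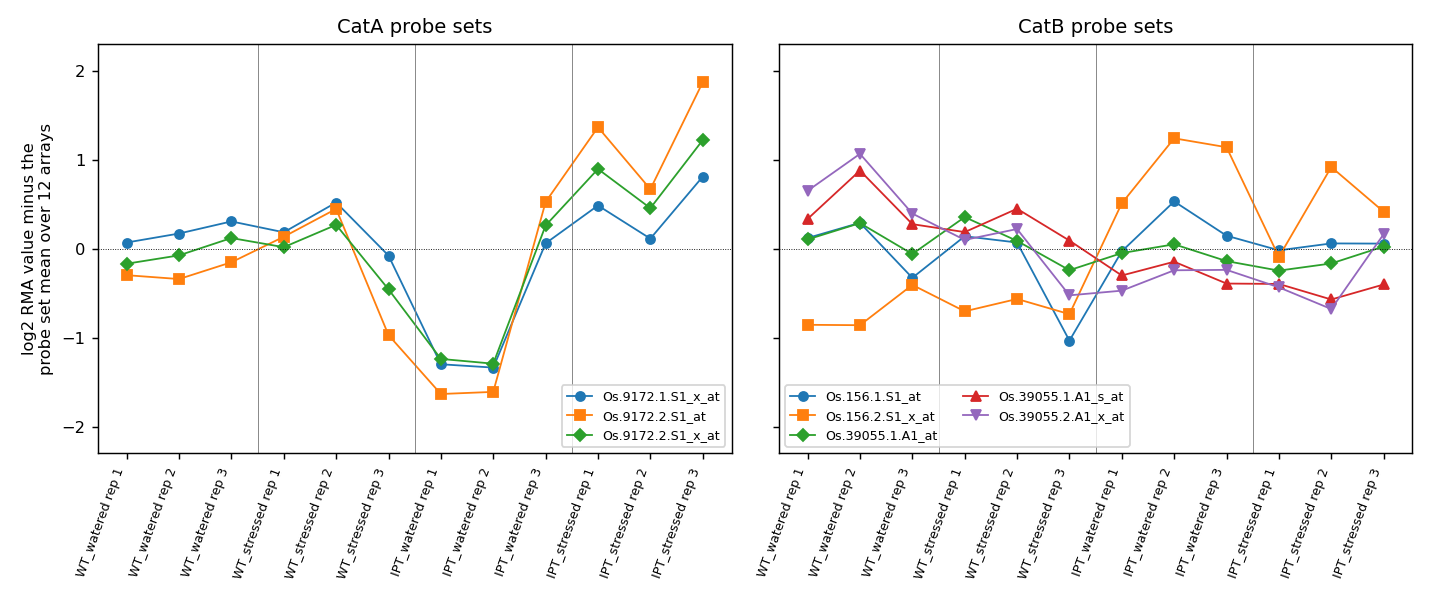
Log2 RMA value of each catalase probe set minus its own mean over the 12 arrays (vertical axis), for CatA (left, 3 probe sets) and CatB (right, 5 probe sets), by array along the horizontal axis. The CatA lines run together and rise at IPT_watered replicate 3, whereas CatB Os.156.2.S1_x_at is high on the IPT_watered arrays, where Os.39055.1.A1_s_at and Os.39055.2.A1_x_at lie below their means.

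CatB was read by 5 probe sets that differed in direction between genotypes. The suffix _s_at marks probes shared by several transcripts, and the brightest probe set, Os.39055.1.A1_s_at, carries it. Its values were 8.98, 9.53 and 8.92 in WT_watered and 8.84, 9.10 and 8.74 in WT_stressed. In IPT_watered they were 8.35, 8.50 and 8.26, and in IPT_stressed 8.25, 8.08 and 8.25. All 6 wild-type arrays lay above all 6 PSARK::IPT arrays, a separation found in this direction for 13.8% of all probe sets. The means fell in the order WT_watered (9.14), WT_stressed (8.89), IPT_watered (8.37) and IPT_stressed (8.19), and only the wild-type groups overlapped.

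On this probe set CatB was 1.71-fold lower in PSARK::IPT with water, a change of -0.78 (SE 0.17, limma adjusted p = 0.00866). Without water it was 1.62-fold lower, a change of -0.70 (SE 0.17, limma adjusted p = 0.00638). Averaged over both water conditions the change was -0.74 (SE 0.12, limma adjusted p = 4.30e-04). The call held in both conditions without any 1 of the 12 arrays, with changes of -0.89 to -0.58 with water and -0.77 to -0.60 without. With the GAPDH covariate the changes were -0.25 (adjusted p = 0.719) and -0.023 (adjusted p = 0.980).

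A second CatB probe set, Os.39055.2.A1_x_at, was also lower in PSARK::IPT with water. Its values were 7.23, 7.65 and 6.98 in WT_watered, 6.68, 6.80 and 6.06 in WT_stressed, 6.11, 6.34 and 6.35 in IPT_watered, and 6.15, 5.90 and 6.75 in IPT_stressed. WT_watered lay above every other array, and the other 3 groups overlapped. The genotype change was -1.02 with water (SE 0.25, limma adjusted p = 0.0157) and -0.25 without (SE 0.25, 95% interval -0.80 to 0.30). In wild type its change without water was -0.77 (SE 0.25, adjusted p = 0.139).

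Os.156.2.S1_x_at went the other way. Its wild-type arrays read 3.34, 3.34 and 3.79 with water and 3.50, 3.63 and 3.46 without. Its PSARK::IPT arrays read 4.71, 5.44 and 5.34 with water and 4.11, 5.12 and 4.61 without, all above every wild-type array. Both wild-type means, 3.49 and 3.53, lay under the background level of their group, the 95th percentile of 106 probe sets for foreign sequences, which was 3.62 in WT_watered and 4.10 in WT_stressed. Against that level the PSARK::IPT mean was at least 2.92-fold higher with water and at least 1.43-fold higher without. The fitted changes were 1.67 (limma adjusted p = 0.00118) and 1.08 (limma adjusted p = 0.00542).

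The last 2 CatB probe sets were not called in any of the comparisons. Os.156.1.S1_at read 8.09, 8.26 and 7.64 in WT_watered, 8.11, 8.04 and 6.94 in WT_stressed, 7.94, 8.50 and 8.12 in IPT_watered, and 7.95, 8.03 and 8.03 in IPT_stressed. All 4 groups overlapped, and its lowest array was WT_stressed replicate 3, as for APX1. Os.39055.1.A1_at ranged from 4.11 to 4.71 over the 12 arrays, with genotype changes of -0.16 and -0.20.

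With the 5 CatB probe sets averaged into 1 value, the genotype change was -0.019 with water (adjusted p = 0.952) and 0.049 without (adjusted p = 0.827). The call for CatB thus rests on which probe set stands for the gene. Which of them reads the CatB transcript best was not tested, and the stretch of the gene that each covers is not given in the files. The catalase CatC, best known from photosynthetic leaf, had no matching name here.

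Withholding water left CatB without a called change on any probe set. On the brightest the change was -0.25 in wild type (SE 0.17, 95% interval -0.62 to 0.11) and -0.18 in PSARK::IPT (SE 0.17, 95% interval -0.55 to 0.19). The difference between the stress effects was 0.077 (SE 0.24, 95% interval -0.44 to 0.60).

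Genes whose products work beside these enzymes were counted from lists of names. Only those with a matching gene name and a probe set of their own were counted. Most of the rest had no matching name, which does not show that the array lacks them. Of 10 genes listed for ascorbate and glutathione recycling, 2 were found in this way. MDAR2, a monodehydroascorbate reductase, was called higher in PSARK::IPT by 1.60 with water (SE 0.24, limma adjusted p = 0.00105) and by 1.53 without (SE 0.24, limma adjusted p = 5.08e-04). Its wild-type arrays read 8.14 to 9.24 and its PSARK::IPT arrays 9.99 to 10.55, with no overlap, and it was called after quantile normalisation and with equal array medians but not with the GAPDH covariate. MDAR5 had 0.38 and 0.53, neither called.

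Superoxide dismutases make the hydrogen peroxide that the 4 enzymes remove, and 3 of 7 listed were found by name. SODCC1, a cytosolic copper-zinc enzyme, was called higher in PSARK::IPT without water by 0.99 (SE 0.22, limma adjusted p = 0.00451) and had 0.66 with water (adjusted p = 0.0598). SODCC2 and SODCP had changes of 0.39 and -0.39 without water, neither called. Of glutathione peroxidases and peroxiredoxins, thiol enzymes that reduce peroxides, 2 of 8 listed were found by name.

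PRXIIE-2 and BAS1, both peroxiredoxins, were called lower in PSARK::IPT without water, with changes of -1.81 (limma adjusted p = 0.0216) and -0.66 (limma adjusted p = 0.0340). With water they had -1.25 and -0.47, neither called. Without WT_stressed replicate 3 the changes without water were -1.08 (adjusted p = 0.0557) for PRXIIE-2 and -0.40 (adjusted p = 0.109) for BAS1, and neither was called.

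Glycolate oxidases make peroxide in photorespiration, and 4 of 10 genes listed for that pathway were found by name, all of them glycolate oxidases (GLO1, GLO3, GLO4 and GLO5). None of these 4, and not GLDH1, the 1 gene found of 9 listed for ascorbate synthesis, was called. After quantile normalisation GLDH1 was called lower in PSARK::IPT, with -0.59 with water (limma adjusted p = 0.0214) and -0.66 without (limma adjusted p = 0.00654). A second GLO1 probe set was called higher in PSARK::IPT, by 0.81 with water and 1.49 without. Over the 17 list genes, 1 was called with water (MDAR2) and 5 without (3 higher, 2 lower), beside the 19.2% and 46.1% of all probe sets. These counts moved with the scaling: equal array medians gave 3 higher with water, and 6 higher and 1 lower without. Quantile normalisation gave 1 higher and 1 lower with water, and 2 higher and 4 lower without, and the GAPDH covariate gave 0 calls in both. The water treatment gave 0 calls of 17 in either genotype, and so did the difference between the stress effects.

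Patterns like those of the members were looked for among 1562 genes with a name and a mean of at least 5, by Pearson correlation over the 12 arrays, which share the 4 group means. Nearest to APX1 were OsPYL11 (0.983), RHD3 (0.981) and ELP3 (0.977), and within groups these correlations were 0.960, 0.940 and 0.973. Nearest to APX5 were BIO1 (0.913), HisRS (0.886) and OsC3H25 (0.878), with 0.901, 0.895 and 0.811 within groups. The correlation over 12 arrays already includes the scatter among replicates, so high values within groups are partly built into this choice.

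Nearest to CatA was HIRL1, with 0.941 over all arrays and 0.849 within groups. RPL11 and HOX1 followed with 0.823 and 0.822 over all arrays, and 0.635 and 0.576 within groups. Nearest to CatB were MKRN, OsPCL1 and HSF03, of which OsPCL1 had 0.946 over all arrays and 0.731 within groups. OsPCL1 averaged 7.56 and 7.33 in the wild-type groups and 4.74 and 4.32 in PSARK::IPT.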

How the data were processed

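Total RNA of flag leaves was hybridised to 12 Affymetrix rice arrays, 3 for each of 4 labelled groups. The authors deposited log2 values made with RMA, per the submitters' processing notes; the software used for it is not given in the sources used here. Of its 57381 probe sets, 123 control and 64 reporter probe sets were kept out of the tests. Values were used as deposited. Names came from the array annotation and the RefSeq table of assembly ASM3414082v1, used for names and neighbours only. A gene was represented by its probe set with the highest mean.

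One mean per group was fitted over all 12 arrays with limma 3.58.1 in R 4.3.3 (lmFit, eBayes) and 7 contrasts were tested, each adjusted over all 57194 probe sets; the procedure was tested on simulated data. With 3 arrays in each of 2 groups, 0.1 is the smallest two-sided p of an exact permutation test, and the number of arrays limits the precision. The members and lists were chosen with earlier results of these data known. Named genes were all members, up to 4 of each list with the smallest p in a contrast, and the 3 genes most correlated with each member. The plants behind the biological replicates are not described further, so p-values measure the spread between these arrays.

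Alternatives were equal array medians, quantile normalisation, trend and robust options, array weights, the GAPDH difference as a covariate, the replicate block, only the arrays compared, a minimum mean of 5, each array left out in turn, and the mean of a gene's probe sets. No sequence is printed.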

Additional observations from a re-analysis of the deposited data

How the results depend on the processing

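Of the 4 genes' changes, one for each gene and contrast, 519 values under the alternatives kept the direction and the side of the threshold and 21 changed sign. With the sign kept, 19 lost a call and 17 gained one. A value that changed sign and also lost its call is counted only among the 21. With equal array medians 1 of the 10 probe sets was called for stress in wild type, APX5 had -1.20 there (adjusted p = 0.0371), CatA had 1.14 for genotype without water (adjusted p = 0.0258), and APX5 had 0.51 for genotype averaged over water. After quantile normalisation CatA had 0.054 for stress in wild type and -0.085 for averaged genotype, APX1 had 1.195 for genotype with water (adjusted p = 0.0648), APX5 had 0.39 for genotype without water and -0.047 averaged, and CatB had -0.10 for the difference between the stress effects. Array weights gave 3 calls for stress in PSARK::IPT, with CatA at 1.93 (adjusted p = 0.00243), CatA at 0.087 for stress in wild type and APX5 at 0.37 for averaged genotype. With the GAPDH covariate 0 of 10 were called for genotype with water, 0 without and 0 averaged. APX1 then had 0.45 with water, 0.78 without and 0.61 averaged, and 0.068 for averaged stress. CatB had -0.25, -0.023 and -0.14 for genotype with water, without and averaged, APX5 had -0.075 without water and -0.55 averaged, and CatA had -0.25 averaged and 0.10 for stress in wild type. With only the arrays compared CatA had 0.91 for genotype without water (adjusted p = 0.0286). With a minimum mean of 5, 1 probe set was called for stress in wild type, APX5 at -1.10. With the mean of a gene's probe sets CatA had 0.048 for stress in wild type, and CatB had -0.019, 0.049 and 0.015 for genotype with water, without and averaged. Beyond the covariate and the averaging of probe sets, whose construction adds a term or merges probe sets, the cause of these shifts was not tested.

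With each array left out in turn, the calls among the 10 probe sets ranged from 0 to 1 for stress in wild type, 0 to 3 for stress in PSARK::IPT, 2 to 6 for genotype with water and 4 to 6 without, 0 to 3 for averaged stress and 4 to 5 for averaged genotype. APX1 ranged from -0.88 to 0.17 for stress in wild type, 1.07 to 1.52 for genotype with water, -0.022 to 1.03 for the difference between the stress effects and -0.36 to 0.16 for averaged stress. APX5 ranged from -1.35 to -0.89 for stress in wild type and 0.25 to 0.48 for averaged genotype. CatA ranged from -0.18 to 0.18 for stress in wild type, 1.35 to 2.12 for stress in PSARK::IPT, -1.22 to -0.45 for genotype with water, 0.71 to 1.12 without, 0.67 to 1.05 for averaged stress and -0.15 to 0.23 for averaged genotype. CatB ranged from -0.11 to 0.19 for the difference between the stress effects. The 3 calls for stress in PSARK::IPT and the 3 for averaged stress came without IPT_watered replicate 3, the array singled out by its own CatA values.

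Over all 57194 probe sets the alternatives gave 2 to 2314 calls for stress in wild type, beside 240, and 31 to 4970 in PSARK::IPT, beside 101. For genotype they gave 39 to 16912 with water, beside 10981, and 129 to 27565 without, beside 26357, for the difference between the stress effects 0 to 40, and for the averages 64 to 1056 (stress, beside 234) and 110 to 31709 (genotype, beside 29259). With equal array medians the median change for genotype without water moved from -0.16 to 0.06, and 14672 of 20880 calls were higher, beside 11065 of 26357. The other splits that moved were 7138 of 10228 beside 5889 of 10981 for genotype with water, 15513 of 24242 beside 11895 of 29259 averaged, 124 of 248 beside 147 of 234 for averaged stress, and 103 of 848 beside 90 of 240 for stress in wild type, which quantile normalisation turned to 225 of 429. Deviations of same-numbered arrays from their group means correlated between -0.10 and 0.19, with 9 of 18 pairs over 0.1. Yet 11 of 12 arrays correlated best with an array of their own number. The main fit did not pair arrays by number. With the replicate block, 35 of 35 results kept direction and call, or a count within 1.5 times: 5 probe sets were called for genotype with water and 4 without. Over all probe sets the block gave 60 calls for stress in wild type, beside 240, and 287 in PSARK::IPT, beside 101. Signal near background limits the smaller CatB values.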
